A study of Drosophila melanogaster with 3 samples.

Results

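The genes described here encode translation factors other than the cap-binding eIF4 group. They are the protein coding genes of Drosophila melanogaster whose symbol in the annotation of build dm6 begins with eIF, eEF or eRF, without those that begin with eIF4. This rule took 41 of 13968 protein coding genes. All 41 symbols name factors of initiation, elongation or termination in the cytoplasm, or relatives of them. The study mapped where CG2120, a protein with zinc fingers, is found on chromatin. Whole embryos of 18 to 24 h, at the end of embryonic development, came from the transgenic strain CG2120-GFP, in which GFP is fused to the C-terminal end of CG2120. Chromatin sheared to 200 to 800 bp was precipitated with an antibody against GFP, and the DNA was sequenced in 3 biological replicates, all of the same strain and age. No embryos of another genotype or age were compared. The labels give the antibody once as against GFP and once by the target CG2120, and the sex as not collected. They do not say what drives the fusion gene or which cells carry the protein, and a whole embryo mixes all its tissues. A gene is called bound when the summit of a peak, its highest point, lies within 500 bp of any of its transcription start sites (TSSs).

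Translation begins when eIF2 brings the initiator tRNA to the small ribosomal subunit, which eIF1, eIF1A and eIF3 prepare for scanning the mRNA. eIF2B recharges eIF2 with GTP, eIF5 triggers GTP hydrolysis at the start codon, and eIF5B joins the large subunit. The eEF factors then carry aminoacyl-tRNA to the ribosome and move it along, and eRF1 and eRF3 release the finished protein. Most of these genes are active in nearly every cell, and such promoters in flies are often of the broad housekeeping kind.

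Most translation factor promoters carried a CG2120 peak. In the optimal list of 8340 reproducible peaks, 27 of the 41 genes were bound (65.9%, exact 95% interval 49.4 to 79.9), against 34.0% of all protein coding genes. The strongest 8340 peaks of replicate 1 bound 25 of the 41 genes, where 33.6% of all genes were bound. Replicate 2 bound 26 where 34.3% of all genes were bound, and replicate 3 bound 21 where 33.0% were. The mean share was 58.5% ± 6.46 (SD, n = 3) for the translation factor genes and 33.7% ± 0.645 (SD, n = 3) for all genes. All 3 replicates thus gave a higher share for the translation factors, by 24.9 ± 5.86 percentage points (SD, n = 3). In the strongest peaks of each of the 3 replicates, 19 of the 41 genes (46.3%) were bound every time, against 28.6% of all genes.

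**Figure D1:**
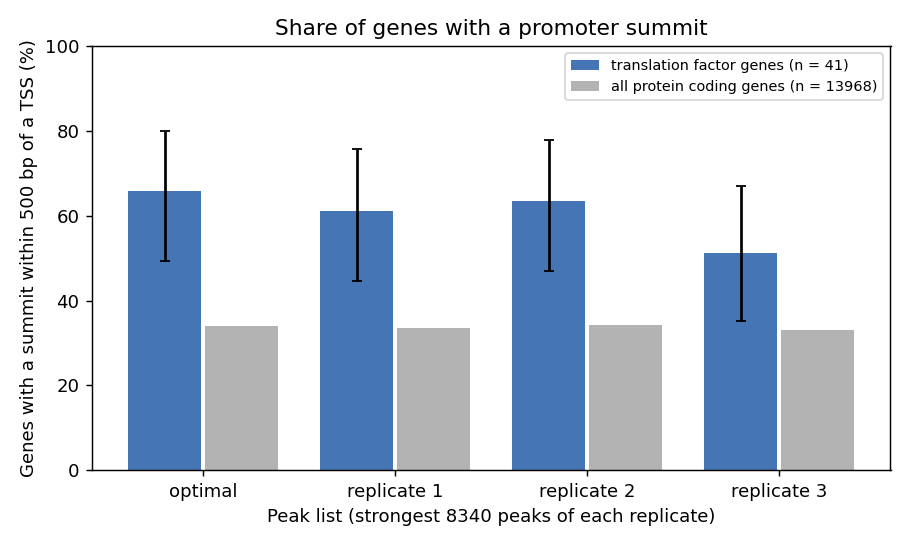
Share of genes with a summit within 500 bp of a TSS (y axis, percent) in the optimal list and in the strongest 8340 peaks of each replicate (x axis). Blue bars stand for the 41 translation factor genes with exact 95% binomial intervals, grey bars for all 13968 protein coding genes. Every blue bar lies above its grey bar, and that of replicate 3, at 51.2%, is the lowest.

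The bound translation factor promoters did not rank higher by signal than bound promoters in general. The strongest summit of each bound gene lay at a median percentile of 60.2 of the optimal list by signal (quartiles 20.1 and 77.1), where 100 is the strongest peak. Over all 4747 bound genes the median was 64.2 (quartiles 37.4 and 84.3). Of the 27 bound genes, 19 (70.4%, exact 95% interval 49.8 to 86.2) were bound in the strongest peaks of all 3 replicates, against 83.8% of all bound genes. In the replicates the median percentile was 63.0 ± 3.59 (SD, n = 3). Signal values are the authors' and are not scaled between lists, so ranks within a list are compared across replicates. Ranks were correlated only over bound genes with a summit within 100 bp of the optimal summit in both replicates. This left out eIF2beta and eIF3m where replicate 2 was used, and eIF1 where replicate 3 was used. The Spearman correlation was 0.899 between replicates 1 and 2 over 25 genes. It was 0.852 between replicates 1 and 3 over 26 genes and 0.857 between replicates 2 and 3 over 24 genes, and the labels name 1 control experiment for all replicates.

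The DNA replication-related element (DRE), read TATCGATA, was found at more of these summits than at promoter summits in general. The DRE is the site of the factor DREF at many housekeeping promoters, and the shorter CGATA inside it is the site of the insulator protein BEAF-32. Both strands were searched within 50 bp of each summit, and the DRE reads the same on both. The 27 genes have 32 promoter summits, and 7 of these windows held a DRE (21.9%, exact 95% interval 9.28 to 40.0), against 5.61% of all 4120 promoter summits. The 7 were assigned to eEF1gamma, eIF1, eIF2A, eIF2alpha, eIF2gamma, eIF3a and eIF3f1. The eIF1 summit with the DRE lay 292 bp upstream of eIF1 and 89 bp upstream of RpL28. That of eIF3a was nearer to the TSS of CG1074, and that of eIF2gamma was as near to Su(var)3-9. In 3 of the 7 windows (42.9%) the centre of the DRE lay within 5 bp of the summit. Of all 231 promoter windows with a DRE this held for 26 (11.3%), and the difference was not tested. Those 3 were eIF1 and eIF3f1, each 0.5 bp away, and eEF1gamma, 1.5 bp away. In eIF3a the DRE lay 12.5 bp from the summit.

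The summit windows of these 4 genes and of eIF2gamma are shown because they hold the DRE. They are cut where an annotated untranslated region (UTR) begins, are read on the strand of the gene from the RefSeq release 6 genome (dm6), and have the DRE in capitals. In the eIF2gamma window a DRE lies on either side of the summit, 31.5 and 36.5 bp away. The windows are at chr3L:3222999-3223099 for eIF1 (plus strand), chr3R:4714183-4714236 for eIF3f1 (minus), chr3R:29220083-29220171 for eEF1gamma (plus), chr3R:4433896-4433964 for eIF3a (minus) and chr3R:15263459-15263545 for eIF2gamma (minus).
eIF1: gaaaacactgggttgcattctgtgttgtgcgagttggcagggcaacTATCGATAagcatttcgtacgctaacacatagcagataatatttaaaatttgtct
eIF3f1: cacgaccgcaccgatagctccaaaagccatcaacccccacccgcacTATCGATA
eEF1gamma: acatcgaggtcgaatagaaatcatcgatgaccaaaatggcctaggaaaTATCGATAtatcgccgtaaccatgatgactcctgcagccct
eIF3a: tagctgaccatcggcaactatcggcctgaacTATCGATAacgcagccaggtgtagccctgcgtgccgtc
eIF2gamma: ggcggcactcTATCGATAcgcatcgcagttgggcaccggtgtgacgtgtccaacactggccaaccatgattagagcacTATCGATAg

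The shares of the other motifs are given beside those of all promoter windows. CGATA was in 12 of the 32 windows (37.5%), in 7 of them as part of the DRE and in 5 without one, against 27.4% of all promoter windows. With 100 bp on each side CGATA was in 21 windows (65.6% against 44.1%) and the DRE in 9 (28.1% against 10.1%). At the 22 summits found in all 3 replicates CGATA was in 10 windows (45.5% against 26.5%) and the DRE in 5 (22.7% against 5.19%). The core of Ohler motif 1, GGTCACAC, a promoter element bound by M1BP, was in 3 windows (9.38%, exact 95% interval 1.98 to 25.0), those of eIF2A, eIF2Bepsilon and eEF1alpha1, against 2.82% of all. GAGAG, the site of the factor encoded by Trl, was in 3 windows (9.38%) against 9.68%, and TATAAA in 4 (12.5%) against 17.9%. The core of Ohler motif 7, CAGCNCTG, was in 2 windows against 4.78%, and the CRE core ACGTCA in 1 against 2.14%. The E-box CACGTG and the core of Ohler motif 6, GGTATTTT, were in none of the 32, against 0.947% and 2.35% of all. The limit of 3 counts taken for a count of 0 is 9.38%, and the exact 95% interval reaches 10.9%. In a window from 250 bp before to 50 bp after any TSS, 10 of the 27 bound genes held a DRE (37.0%, exact 95% interval 19.4 to 57.6). So did 3 of the 14 unbound genes (21.4%, exact 95% interval 4.66 to 50.8), eEF1delta, eIF2Bbeta and eIF3l. The 2 intervals overlap widely. Over all genes the DRE was in 17.8% of bound and 6.21% of unbound promoters.

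**Figure D2:**
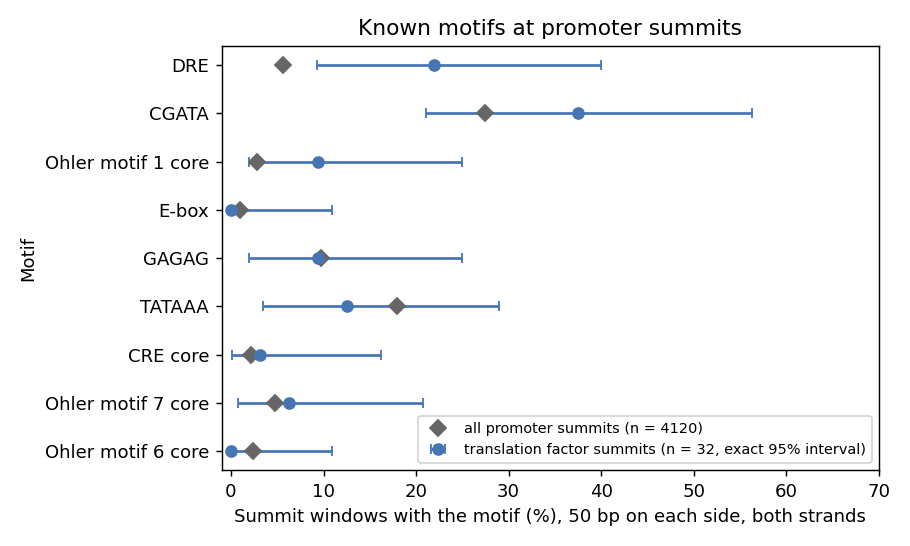
Share of summit windows with each of 9 motifs (x axis, percent) for the 32 summits at translation factor promoters (blue, exact 95% interval) and for all 4120 promoter summits (grey diamonds). The grey diamond of the DRE, at 5.61%, lies outside the blue interval of 9.28 to 40.0, and the other diamonds lie inside theirs.

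Among the termination factors both genes were bound (lower exact 95% limit 15.8%, against 34.0% of all genes). eRF1 (FBgn0036974, chr3L:20348355-20353873), which recognises the stop codons, had its peak at chr3L:20348131-20348407 with a signal of 617, rank 1094 of the optimal list. The same summit had a signal of 203 and rank 1030 in replicate 1, 244 and rank 1229 in replicate 2, and 163 and rank 1162 in replicate 3. The 3 replicate summits lay within 9 bp. It was 82 bp upstream of the TSS of eRF1, in a promoter that eRF1 shares with the histone methyltransferase cofactor gene Rbbp5. Its window is at chr3L:20348223-20348323 on the plus strand. It is shown as a strong peak with no DRE within 50 bp of the summit, so no letters are in capitals. A DRE did lie outside this window, between 250 bp before and 50 bp after a TSS of eRF1.
eRF1: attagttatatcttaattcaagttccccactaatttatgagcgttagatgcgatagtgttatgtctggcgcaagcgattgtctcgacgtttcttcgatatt
eRF3, the GTPase that works with eRF1, had 2 summits with signals of 275 and 201. The stronger was nearest to the TSS of the splicing factor gene SC35, 49 bp upstream of it and 365 bp upstream of eRF3, and the weaker lay 52 bp upstream of eRF3.

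The strongest peak at any of these genes was that of eIF6, and it ranked among the first 17 of every list. eIF6 binds the large ribosomal subunit, takes part in its assembly and keeps it from joining too early. The gene (FBgn0034915) lies at chr2R:23849246-23850301 on the minus strand, and its peak, at chr2R:23850160-23850671, has its summit in an intron of ytr, 98 bp upstream of the TSS of eIF6. The signal in the optimal list was 4326, rank 15. In the replicates the peak had a signal of 1426 and rank 13 in replicate 1, 1691 and rank 17 in replicate 2, and 1248 and rank 14 in replicate 3. Their summits lay within 9 bp. No TSS of another protein coding gene lay within 500 bp of this summit.

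eIF3, the large scaffold that ties the small subunit to the mRNA, was bound at about as many of its genes as not. Of the 13 genes for its subunits with only the first copy of each counted, 7 were bound (53.8%, exact 95% interval 25.1 to 80.8), and of the 3 second copies, eIF3d2, eIF3f2 and eIF3g2, none was. Together 7 of 16 were bound (43.8%, exact 95% interval 19.8 to 70.1), an interval that holds the 34.0% of all genes. The peaks of eIF3h and eIF3c were far stronger than the rest. eIF3h (FBgn0022023, chr2L:5051193-5053094) had a signal of 1136, rank 347. It had signals of 331, 452 and 343 and ranks 410, 395 and 294 in replicates 1, 2 and 3. eIF3c (FBgn0034258, chr2R:17665678-17669275) had 1095, rank 379, with signals of 344, 441 and 301 and ranks 379, 419 and 389 in the same order. In each replicate these ranks fell within the first 500, and the summits of eIF3h lay within 7 bp and those of eIF3c within 65 bp across replicates.

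The peak of eIF3h stood apart by its place. Its summit lay in an intron of eIF3h, 277 bp downstream of the nearer of its 2 TSSs, which is not the 5' end of the gene. A second summit in the same peak, with a signal of 695, lay 53 bp downstream of that TSS in a coding exon. A TSS of senju also lay within 500 bp of the stronger summit. The peak of eIF3c lay 17 bp upstream of its TSS. The next eIF3 genes were eIF3a (signal 386, rank 2303), the scaffold subunit, and eIF3m (358, rank 2551). The peak of eIF3a was 47 bp upstream of its own TSS and 23 bp upstream of that of CG1074, which is the nearer. eIF3m had its stronger summit 55 bp downstream of its TSS and a second one 158 bp upstream, nearest to CG8323. The stronger was found in replicates 1 and 3 at ranks 2070 and 2540, and replicate 2 had no summit within 100 bp of it. By the 500 bp rule all 3 replicates bound eIF3m in their strongest peaks. eIF3d1 (182, rank 5551) and eIF3f1 (158, rank 6462) had weaker peaks that all 3 replicates shared. eIF3b (139, rank 7414) was bound only through a summit 371 bp upstream, in the 5' UTR of Patronin, and only replicate 2 held it among its strongest peaks, at rank 6034, with ranks 10039 and 8428 in replicates 1 and 3.

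The unbound eIF3 genes differed in how close they came. eIF3l had a pooled peak with a signal of 103 at rank 9916, outside the optimal list, whose lowest signal is 123. Its promoter summits ranked 9016, 9150 and 16442 in the full lists of replicates 1, 2 and 3, which include background. eIF3j ranked 14605, 10224 and 15399, so it was present in every full list and in none of the strongest parts. eIF3e and eIF3g1 had only weak entries, at pooled ranks 24124 and 24983. Among its strongest peaks replicate 2 held one at eIF3k, which had no summit within 500 bp in the pooled list. The nearest optimal summit was 6598 bp away for eIF3l, 2126 bp for eIF3j, 4381 bp for eIF3e, 1384 bp for eIF3g1, 5974 bp for eIF3k and 3805 bp for eIF3i. eIF3i had no summit within 500 bp in the pooled list or in any replicate. The second copies eIF3d2 and eIF3g2 had none either, with their nearest optimal summits 26610 and 80000 bp away, and eIF3f2 had only a pooled entry at rank 27061 and its nearest optimal summit 13591 bp away. Over the 14 unbound genes the nearest optimal summit was at a median of 5178 bp, against 6798 bp for 9198 unbound genes on arms that hold optimal peaks.

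The 3 subunits of eIF2 were all bound, but with weak peaks for the alpha and beta subunits (lower exact 95% limit 29.2%, against 34.0% of all genes). For every pair of replicates, only 1 of the 3, eIF2gamma, had its summit among the strongest peaks of both. eIF2gamma, the GTP-binding subunit, had a signal of 289 (rank 3320) and ranked 3380, 3548 and 3539 in replicates 1, 2 and 3. Its summit lay 37 bp upstream of a TSS that eIF2gamma shares with Su(var)3-9, a histone methyltransferase gene, so the peak cannot be assigned to either. eIF2alpha, whose product is phosphorylated under stress, had a signal of 134 (rank 7696), 28 bp downstream of its TSS. It ranked 6377 in replicate 1 but 8422 and 10714 in replicates 2 and 3, outside their strongest peaks. eIF2beta had 128 (rank 8059), and only replicate 1 held this summit among its strongest peaks. By the 500 bp rule 2 replicates bound eIF2beta in their strongest peaks. The signals of eIF2alpha and eIF2beta lie just above the lowest signal of the optimal list.

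Of the 5 subunits of eIF2B, the exchange factor of eIF2, 3 were bound, again weakly (60.0%, exact 95% interval 14.7 to 94.7, against 34.0% of all genes). None of the 3 had its summit among the strongest peaks of both replicates 2 and 3. For replicates 1 and 3 this held for 1 gene, and for replicates 1 and 2 for 2 genes. eIF2Bgamma had a signal of 160 (rank 6365), eIF2Bdelta 149 (rank 6866) and eIF2Bepsilon 124 (rank 8313), each in the strongest peaks of 2 replicates. The summit of eIF2Bdelta lay at the TSS of roh and that of eIF2Bepsilon 8 bp upstream of Ocrl, so for both the nearest start site was that of the neighbour. eIF2Balpha had no summit within 500 bp in any list, and its nearest optimal summit was 23658 bp away. eIF2Bbeta lay 677 bp from the summit of the fourth strongest peak of the optimal list, with a signal of 7175 at chrX:2703599-2704159, which is 42 bp upstream of Ugalt. With a window of 1000 bp eIF2Bbeta was bound through this peak.

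The factors of scanning and subunit joining were bound at 3 of 4 genes (exact 95% interval 19.4 to 99.4%, against 34.0% of all genes). Their strongest summits lay at percentiles of 67.2 to 77.2 of the optimal list by signal. eIF5B had a signal of 441 (rank 1903) and ranked 1840, 1952 and 2109 in replicates 1, 2 and 3. eIF1 had 2 summits in the promoter it shares with the ribosomal protein gene RpL28. The stronger (437) lay 292 bp upstream of eIF1 and 89 bp upstream of RpL28, and the weaker (294) lay 91 bp upstream of eIF1. The stronger was found in replicates 1 and 2 at ranks 1882 and 1405, and replicate 3 had no summit within 100 bp of it. eIF1A had a signal of 339 (rank 2735) and ranks between 2632 and 3045 in the replicates. eIF5 was not bound, with a pooled peak of signal 81.3 at rank 12257 and its nearest optimal summit 3333 bp away. The 2 factors named for eIF2 that are not its subunits were bound in all 3 replicates, eIF2A with a signal of 488 (rank 1637) and eIF2D, a factor of reinitiation, with 313 (rank 3033). eIF2A had signals of 188, 204 and 93.9 and ranks 1163, 1643 and 2627 in replicates 1, 2 and 3, the lowest in replicate 3.

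Of the 8 genes of elongation, 6 were bound (75.0%, exact 95% interval 34.9 to 96.8, against 34.0% of all genes). eEF1gamma, a subunit of the exchange complex of eEF1alpha, had the strongest peak of these at 569 (rank 1261, chr3R:29219955-29220246), with signals of 165, 286 and 124 and ranks 1452, 951 and 1795 in replicates 1, 2 and 3. eEF1alpha1, which carries aminoacyl-tRNA, had 2 summits at different start sites of its own, with signals of 336 and 230. Its paralogue eEF1alpha2 had 143 (rank 7212) and was outside the strongest peaks of replicate 1, at rank 9798. eEF5, the hypusine-bearing factor formerly called eIF5A, had a signal of 271 with its summit on the TSS. eEF2, the translocase, had 257, 18 bp downstream, and ranked 3311 and 3317 in replicates 1 and 2 but 8558 in replicate 3. eEF1beta had 148, 184 bp upstream. eEF1delta and the selenocysteine factor gene eEFSec were not bound, and their nearest optimal summits were 1171 and 13992 bp away. Of the replicates' full lists that of replicate 2 held a promoter summit for each, at ranks 26373 and 14067, and the other 2 held none. eEF1delta also had a pooled entry at rank 19822 with a signal of 47.5, and eEFSec had none.

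**Figure D3:**
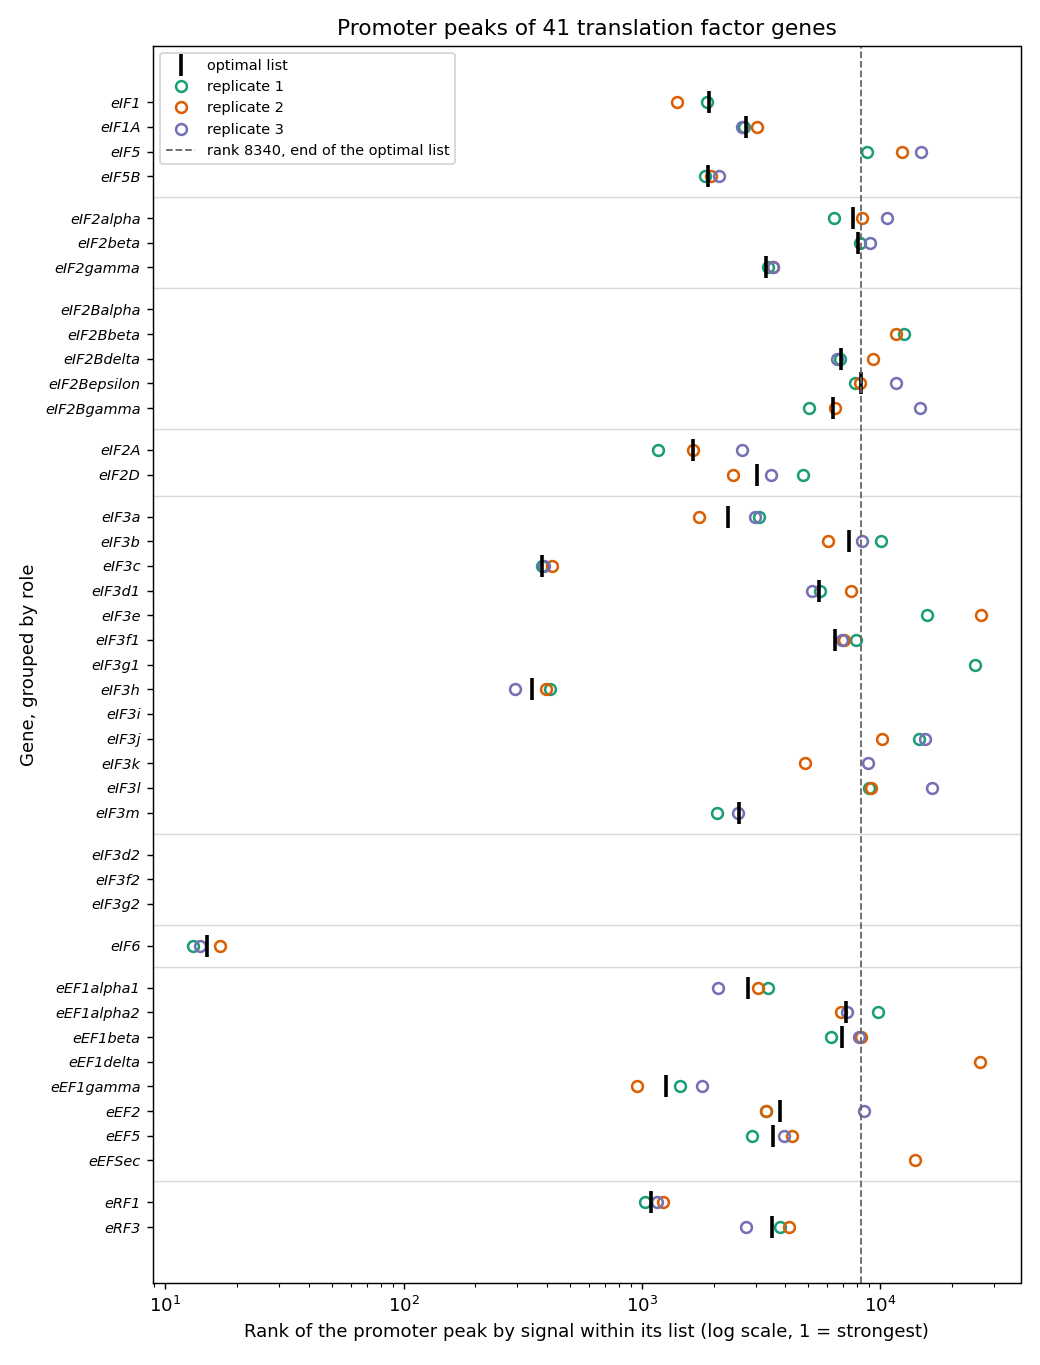
Rank of the promoter peak by signal within its own list (x axis, log scale, 1 is the strongest) for each of the 41 genes, grouped by role (y axis). Black bars mark the strongest promoter summit in the optimal list, circles the same summit within 100 bp in each replicate or, for unbound genes, the strongest promoter summit of the full replicate list. eIF6 lies at ranks 13 to 17, eIF3c and eIF3h lie between 294 and 419, and the circles of many other genes straddle the dashed line at rank 8340.

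Most summits lay close to the start site of the factor gene itself. Of the 27 bound genes, 23 (85.2%, exact 95% interval 66.3 to 95.8) had a summit whose nearest TSS was their own, against 77.2% of all bound genes. The exceptions were eIF2Bdelta, eIF2Bepsilon, eIF3a and eIF3b. Ties were counted, so the 23 include eIF2gamma, whose summit is as near to a TSS of Su(var)3-9. The TSS of another protein coding gene lay within 500 bp of the strongest summit in 12 cases (44.4%), against 55.3% of all bound genes. The 32 summits lay at a median position of -52 bp from the nearest TSS, where negative is upstream (quartiles -83.8 and -3). Over all promoter summits the median was -84 bp (quartiles -170 and -24). Upstream of the nearest TSS were 24 of the 32 (75.0%, exact 95% interval 56.6 to 88.5), against 82.1% of all. In the strongest peaks of the replicates the upstream share was 83.9% ± 5.61 (SD, n = 3). Outside protein coding genes lay 18 of the 32 (56.2% against 57.6% of all), in 5' UTRs 8 (25.0% against 18.7%), in introns 5 (15.6% against 21.7%) and in a coding exon 1. Across replicates the summits of 24 genes with a counterpart in all 3 lay within a median of 28 bp of each other, and within 76 bp at most. Counterparts were taken only within 100 bp of the optimal summit, so the matching rule itself limits this spread.

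**Figure D4:**
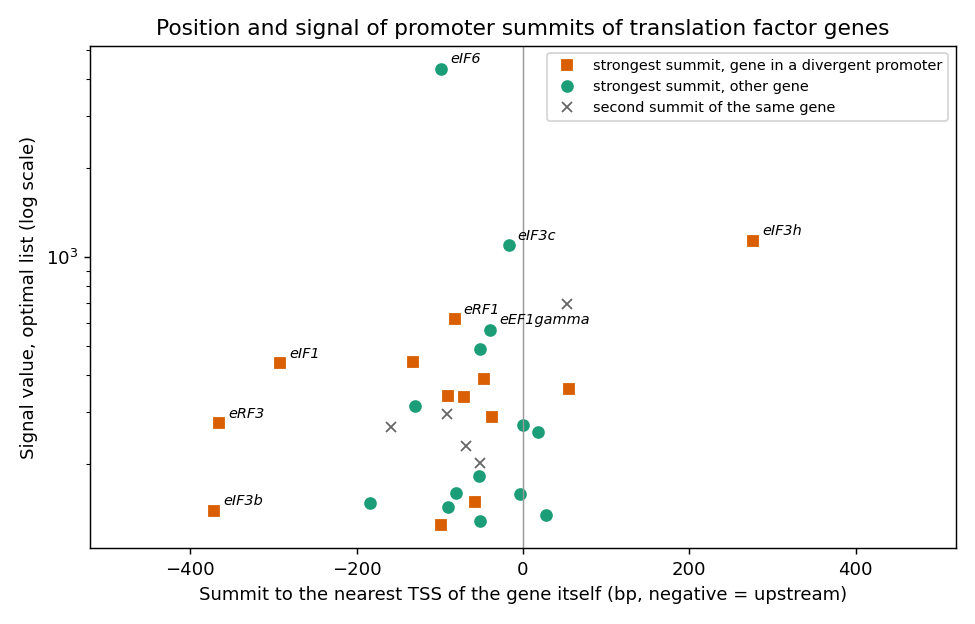
Distance of each promoter summit from the nearest TSS of the gene itself (x axis, bp, negative is upstream) and its signal in the optimal list (y axis, log scale). Squares are genes in divergent promoters, circles the other genes and crosses second summits. Most summits lie within 200 bp of the TSS, and eIF3h, at 277 bp downstream with a signal of 1136, is the farthest downstream.

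Divergent promoters, in which the TSS of a gene on the other strand lies up to 500 bp upstream, were common among these genes. They held 19 of the 41 genes (46.3%, exact 95% interval 30.7 to 62.6), against 27.3% of all protein coding genes. Of these 19, 13 were bound (68.4%), against 63.8% of all genes in divergent promoters. Of the other 22, 14 were bound (63.6%, exact 95% interval 40.7 to 82.8), against 22.8% of all genes outside divergent promoters. The share of bound translation factor genes was thus close to that of all genes in divergent promoters and higher outside them. These differences were not tested.

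Genes that work with these factors were bound to varying degrees. These lists are short and are set beside the 34.0% of all genes only as a description. All 3 genes of ribosome recycling and rescue were bound, HBS1 (signal 507), pix (423) and pelo (360). Of 7 genes whose products modify the factors, 6 were bound, led by HemK2 (1182), which methylates eRF1, Dph1 (582) of the diphthamide pathway of eEF2, Dhps (516), which makes hypusine on eEF5, and Dph4 (400), while Dph5 was not. Of 6 further initiation cofactors 5 were bound, led by pAbp (567), Thor (302), MCTS1 (263) and Pdcd4 (149), while DENR was not. Mitochondrial translation factors were bound in 5 of 8 cases, led by mEFTu2 (256), mEFTu1 (227), mRF1 (189) and mEFG1 (135), with mEFTs, mIF3 and mRRF1 unbound. Among the genes of the response to eIF2 phosphorylation, crc (143) and the kinase gene PEK (129) were bound and the kinase gene Gcn2 was not. The 13 genes of the eIF4 group were bound in 4 cases (30.8%), eIF4EHP (1466), eIF4A (273), eIF4G2 (213) and eIF4E1 (141), with eIF4B, eIF4E3 and eIF4E4 among the unbound. Of the genes named here as bound, PEK and mEFG1 were bound in the strongest peaks of only 1 replicate. Their signals lie just above 123, the lowest of the optimal list. In the strongest peaks pAbp, Pdcd4, crc and eIF4E1 were bound in 2 replicates, and the other named genes in all 3.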

How the data were processed

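Chromatin immunoprecipitation and sequencing gave peak lists of 3 replicates of 1 group. The authors deposited lists in narrowPeak layout with a signal value and a −log10 q for each peak. Per the file names the authors deposited, each replicate list and the pooled list includes background and served the irreproducible discovery rate (IDR) method, whose threshold left the optimal list. Aligner and peak caller: not given in the sources used here. As the deposited −log10 q reaches its highest value of 4.14 in 6897 optimal peaks, peaks were ranked by the deposited signal, within each list only. The 8340 optimal peaks are the strongest of the pooled list, so they do not stand apart from the replicates they are set beside. The dm3 lists were not used here. Peak lists hold no read totals, so sequencing depth is unknown.

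Summits (peak start plus the deposited offset) were compared with all start sites of protein coding genes in Ensembl release 115 (BDGP6.54, dm6 coordinates). All peaks and genes lie within the release 6 arms read for sequence. A replicate was represented by its 8340 strongest peaks, and summits within 100 bp counted as the same. Without a second group no test between conditions exists, so shares are given with exact 95% binomial intervals, which cover counting error only. By the naming rule every gene is accounted for, the 6 with the strongest peak are given in every replicate, unbound genes with their nearest optimal summit, and of the other lists up to 4 bound and 3 unbound genes. Of 36 symbols in the lists outside eIF4, 27 were found. The members, gene lists and motifs were chosen with earlier results of these data known. Assignment was tested on simulated data. Python 3.11.15, pandas 2.3.3 and scipy 1.17.1 were used. Alternatives were other windows, whole peaks, gene ends, shorter or longer lists, wider motif windows, and leaving out each replicate. Leaving out a replicate kept the optimal peaks whose summit both other replicates held among their strongest peaks.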

Additional observations from a re-analysis of the deposited data

How the results depend on the processing

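The number of bound genes, 27, was 26 with a window of 200 bp, 28 with 1000 bp or with any overlap of the peak, 27 with the 5' end of the gene only, 35 in the pooled list and 19 in peaks of all 3 replicates. It was 17 in the 4170 strongest peaks and 16 where replicate summits had to lie within 50 bp, and 20 to 22 when 1 replicate was omitted. Omitting a replicate kept the optimal peaks whose summit both other replicates held within 100 bp among their strongest peaks, and no peaks were called anew. The 23 genes with a summit nearest to their own TSS became 15 both in the 4170 strongest peaks and with summits within 50 bp, and 18 to 19 when 1 replicate was omitted. These settings keep fewer peaks by construction. The share of all genes is not given for these altered counts, so they do not show whether the difference from all genes changed. In the strongest peaks of the replicates a window of 200 bp bound 51.2% to 61.0% of the 41, against 24.9% to 26.5% of all genes. With 1000 bp the shares were 53.7% to 68.3% against 37.2% to 38.3%. The median percentile of 60.2 became 72.4 in the 4170 strongest peaks, 81.5 within the pooled list, 66.7 in peaks of all 3 replicates (69.8 within 50 bp and 69.4 within 200 bp) and 65.2 to 67.0 when 1 replicate was omitted. The upstream share of 75.0% became 69.4% in the pooled list, 86.4% in peaks of all 3 replicates (83.3% within 50 bp and within 200 bp) and 79.2% to 87.0% when 1 replicate was omitted, and the cause was not tested. Bound under all 12 settings were 14 genes, and 6 under none. eIF2alpha, eIF2beta and eIF3b were lost whichever replicate was left out, because only 1 replicate held their summit among its strongest peaks and the rule asks for both others. eIF2B went from 3 bound genes to 0, 1 and 2 without replicates 1, 2 and 3. Windows of 100 bp on each side of the summit raised CGATA from 12 to 21 windows and TATAAA from 4 to 9. The mean of 24.0 bound genes per replicate was 17.0 in the 5000 strongest peaks (39.0% to 43.9% of the 41, against 24.2% to 24.9% of all genes) and 33.0 in the full lists (75.6% to 85.4% against 52.2% to 55.8%). Unknown depth limits statements on unbound genes. No paired analysis was possible because there is 1 group.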

Other observations

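eIF3k, a small subunit of eIF3, was not bound in the optimal list, and the pooled list of 30000 peaks held no summit within 500 bp of its TSS. Replicate 2 nevertheless had a peak there with a signal of 89.9 at rank 4822, 82 bp upstream of the TSS. Its −log10 q of 4.22 was the highest of the list of replicate 2, a value that 8260 peaks of that list reach. Replicate 3 had a peak of signal 31.7 at rank 8857, 132 bp upstream, and replicate 1 had none within 500 bp. Of the 8340 strongest peaks, 79 in replicate 1, 50 in replicate 2 and 165 in replicate 3 overlapped no pooled peak. Among the 5000 strongest of replicate 2 there were 18 such peaks. These values were chosen after they were seen, and what keeps such peaks out of the pooled list was not tested.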
